A study of Mus musculus with 2 samples.

Results

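The genes described here are 8 regulators of mRNA stability, Zfp36, Zfp36l1, Zfp36l2, Khsrp, Elavl1, Zc3h12a, Rc3h1 and Pum2, taken by name to ask where the RNA-binding protein Tia1 contacts their own transcripts. They are 8 of 7787 protein-coding genes with at least 1 low-FDR crosslink site in an exon. The measurement was iCLIP, in which UV light fixes a protein to the RNA it touches and each unique cDNA that ends at the fixed nucleotide is counted as 1 crosslink event. Primary B cells were isolated from the spleen of young adult C57BL/6 mice and activated for 48 h with 10 µg/ml of LPS, cytoplasmic extracts were made, and Tia1-RNA complexes were precipitated in 2 biological replicates, which form the only group. No untreated, antibody-free or input library was analysed here, and the labels name no genetic change.

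The low-FDR list of replicate 1 comprised 342732 sites with 639108 cDNAs and that of replicate 2 comprised 93512 with 165081, a 3.87-fold difference in depth. The titles and the study's methods give Tia1 as the precipitated protein, with an antibody to Tia1 whose precipitate was checked by immunoblot, but the antibody listed in the labels is one raised to its close paralogue Tial1. Which antibody was used was not settled here. B cell identity was checked on fixed marker lists. All 6 B cell markers had exon sites (2723 cDNAs in replicate 1 and 589 in replicate 2). Among 5 T cell markers 1 had an exon site (4 cDNAs in replicate 1 and 0 in replicate 2), and of 4 myeloid markers 3 had sites (29 and 6 cDNAs). RNA abundance was not measured in these libraries, so a count reflects the amount of transcript and the extent of binding together. From these libraries alone the amount and the binding cannot be told apart. The study also measured mRNA abundance in LPS-activated B cells by mRNA sequencing, which was not used here. With a single group of 2 replicates no test between conditions was possible, and intervals are exact (Clopper-Pearson) 95% intervals that cover counting error only. Where a count was 0, the limit given is the share that 3 counts of the total would make.

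AU-rich elements are stretches of overlapping AUUUA pentamers in the 3′UTRs of short-lived mRNAs, among them those of cytokines and growth regulators. Proteins of the Zfp36 (tristetraprolin) family bind the UAUUUAU core with 2 zinc fingers and recruit the deadenylation machinery. Khsrp is a KH domain protein that also promotes decay, and Elavl1 (HuR) is known to bind U-rich and AU-rich RNA and to stabilise it. The other 3 members act through other elements: Zc3h12a (Regnase-1) is an endonuclease that cleaves stem-loops, Rc3h1 (Roquin-1) recognises the stem-loop of constitutive decay elements, and Pum2 binds the Pumilio element UGUANAUA. The name of the list as AU-rich element binders therefore fits 5 of the 8 genes. Tia1 itself is known to prefer U-rich RNA and to repress translation.

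The sequences under the highest crosslink sites are shown first, because U-rich stretches recur in most of them. Each is a window of 29 nt read 5′ to 3′ along the transcript (GRCm38, RefSeq genome sequence) and centred on the nucleotide with most cDNAs in both replicates summed, the one nearest the stop codon where nucleotides tied. Capitals mark nucleotides that were low-FDR sites in both replicates.
Zfp36 (chr7:28376897-28376925, minus strand): cgucuacUCcgUUUUUCUUUUUguaaugU
Zfp36l1 (chr12:80108291-80108319, minus strand): GacgUgUCuUUCcUUUUUUcCacagUUUU
Zfp36l2 (chr17:84185509-84185537, minus strand): aaaagccaacgaacUuUUuCguauggaug
Khsrp (chr17:57022359-57022387, minus strand): guUUuguUcuUUUUUuauucuuuuUucau
Elavl1 (chr8:4289531-4289559, minus strand): CuUUUCUUUUUUCUUUUUUugUacggAau
Zc3h12a (chr4:125118653-125118681, minus strand): gagauuUaaauauuuuaaaugaaaaaggu
Rc3h1 (chr1:160970000-160970028, plus strand): uUuuggacuuuuuUUuuUaagauaaaaug
Pum2 (chr12:8750414-8750442, plus strand): gaauuguauauacUUaUaaUuguaaugag
All 8 windows lie in the annotated 3′UTR, and all but those of Zfp36l2 and Zc3h12a were above 40% uridine. The lowest share was 27.6% in Zfp36l2 and the highest 75.9% in Khsrp, while Elavl1 had 65.5% and Zfp36 55.2%. The site of Zc3h12a carried 7 cDNAs in replicate 1 and 0 in replicate 2. Another nucleotide in the same window, at nt 604 after the stop codon, had 3 cDNAs in each replicate. The highest Zc3h12a site more than 30 nt away, in a run of U, had 2 and 3 cDNAs, and its window holds 28 and 9.
Zc3h12a, highest site more than 30 nt away (chr4:125118992-125119020, minus strand): augcccaaacccucUUuuUUuUUucucag

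All 8 transcripts had a 3′UTR site in both replicates, where 59.3% of the 7787 genes did. All 8 also reached 10 cDNAs in each replicate, where 32.1% of genes did. Summed over the list, 3395 of 3694 cDNAs in replicate 1 (91.9%, interval 91.0 to 92.8%) and 972 of 993 in replicate 2 (97.9%, interval 96.8 to 98.7%) lay in 3′UTRs, a mean of 94.9% ± 4.23 (SD, n = 2). Over all cDNAs within genes the share was 83.0% in replicate 1 and 87.1% in replicate 2. A median per gene was taken over genes that reached 50 summed cDNAs and had sites in their longest 3′UTR. It was 95.2% in replicate 1 (2483 genes, quartiles 87.4 and 100%) and 100% in replicate 2 (2463 genes, 94.6 and 100%). Zfp36, Zfp36l1 and Zfp36l2 lay above this median in replicate 1. Below the lower quartile were Pum2 (82.3%), Khsrp (86.8%) and Zc3h12a (87.1%) in replicate 1, and Pum2 (91.0%) and Rc3h1 (92.6%) in replicate 2. With sites of at least 5 cDNAs in that replicate alone, only 5 members kept a 3′UTR site in both libraries, because Zc3h12a, Rc3h1 and Pum2 had none that high in replicate 2.

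Within the Zfp36 family, Zfp36l1 had the most 3′UTR cDNAs, a count not corrected for the amount of transcript. Its 3′UTR, of 1835 nt (chr12:80107754-80109588, minus strand), had 924 cDNAs in replicate 1 and 351 in replicate 2, more than 99.5% of the genes counted. Zfp36, whose 3′UTR has 774 nt (chr7:28376784-28377557, minus strand), had 330 and 65. Zfp36l2, with 1822 nt (chr17:84183931-84185752, minus strand), had 242 and 63. Zfp36l1 thus exceeded both relatives in each library, whereas Zfp36 and Zfp36l2 were nearly level in replicate 2.

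Of the other AU-rich element binders, the decay factor Khsrp (chr17:57021051-57022692, minus strand, 1642 nt) had 336 cDNAs in replicate 1 and 116 in replicate 2. The stabilising factor Elavl1 (chr8:4285382-4289599, minus strand, 4218 nt) had 635 and 180, the second highest count of the list in both libraries. Elavl1 thus had more cDNAs than Khsrp in each library.

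Among the 3 regulators that use other elements, Pum2 (chr12:8749721-8752581, plus strand, 2861 nt) had 501 cDNAs in replicate 1 and 122 in replicate 2. Rc3h1 (chr1:160967798-160974978, plus strand, 7181 nt) had 366 and 63. Zc3h12a (chr4:125118423-125119278, minus strand, 856 nt) had the fewest, 61 and 12. Its summed 73 cDNAs were still more than those of 75.3% of genes, whose median was 20. The remaining 6 members, leaving out Zfp36l1 and Zc3h12a, stood above 93.8 to 98.8% of genes.

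Length was then taken into account by dividing the count by the length of the merged annotated 3′UTR and scaling to 1000000 3′UTR cDNAs of all coding genes in that library. On this density scale Zfp36l1 was highest with 1224 ± 305 scaled cDNAs per kb (SD, n = 2), followed by Zfp36 with 743 ± 157 and Khsrp with 458 ± 84.0. Pum2 (336 ± 21), Elavl1 (311 ± 14) and Zfp36l2 (263 ± 4.04) came next, and Zc3h12a (124 ± 26.3) and Rc3h1 (84.0 ± 25.5) were last. The neighbours Pum2 and Elavl1 differed by less than the sum of their SDs, as did Zc3h12a and Rc3h1, and every other pair of neighbours in this order differed by more. Rc3h1 moved from the middle of the list by count to the bottom by density, since its 3′UTR is the longest.

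The replicates did not contribute equally to each transcript. Over all coding genes 21.01% of 3′UTR cDNAs came from replicate 2. For Zfp36l1 the share was 27.5% (interval 25.1 to 30.1%) and for Khsrp 25.7% (21.7 to 29.95%), both above that value, and 13.8% of 2525 genes that reached 50 summed 3′UTR cDNAs were above it too. For Zfp36 it was 16.5% (12.9 to 20.5%) and for Rc3h1 14.7% (11.5 to 18.4%), both below it, as were 18.7% of those genes. These shares depended on the sites taken: at sites called in both replicates that of Rc3h1 was 42.2%, the highest of the 8, against 33.9% in Zfp36l1, 36.6% in Khsrp and 23.3% in Zfp36. The intervals of Zfp36l2, Elavl1, Zc3h12a and Pum2 held the value of all genes. Differences in count between these members that are smaller than this variation between libraries, such as Zfp36 against Khsrp (330 against 336 in replicate 1, 65 against 116 in replicate 2), therefore changed in size with the library. Part of the replicate 2 sites recurred at the same nucleotide in replicate 1, from 55.6% of 54 sites in Rc3h1 and 64.2% of 95 in Pum2 to 83.6% of 122 in Zfp36l1 and 84.6% of 26 in Zfp36. All 7 replicate 2 sites of Zc3h12a recurred. Over all replicate 2 sites the share was 62.0%.

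**Figure D1:**
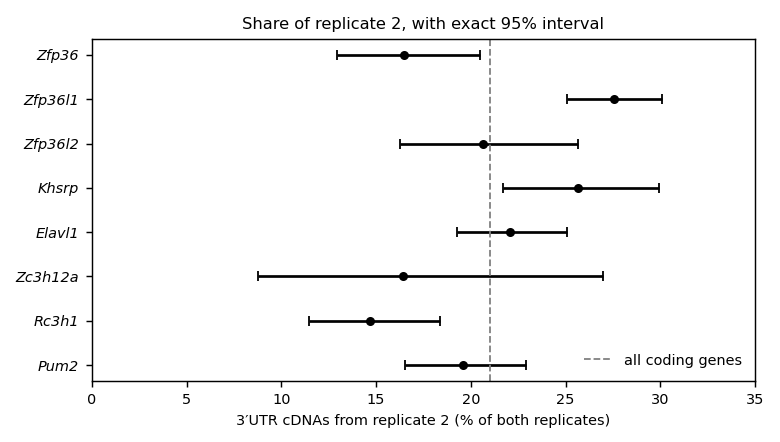
Share of each transcript's 3′UTR cDNAs that came from replicate 2 (x axis, percent of both replicates; points with exact 95% intervals) for the 8 genes; the dashed line is the share over all coding genes, 21.01%. Zfp36l1 and Khsrp lie above the line and Zfp36 and Rc3h1 below it, with intervals that do not reach it.

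Along the 3′UTRs the sites formed 2 kinds of pattern, compact in some members and spread in others. Sites at most 15 nt apart were joined into clusters. In Zfp36 a single cluster of 178 nt, at nt 573 to 750 after the stop codon (chr7:28376808-28376985), held 329 of 330 cDNAs in replicate 1 and all 65 in replicate 2, and the only other site was a single cDNA at nt 280. In Zfp36l1 a cluster at nt 1226 to 1398 (chr12:80108191-80108363) held 600 cDNAs in replicate 1 (64.9%, interval 61.8 to 68.0%) and 263 in replicate 2 (74.9%, 70.1 to 79.4%). In Zfp36l2 the main cluster lay near the start instead, with 176 cDNAs (72.7%, 66.7 to 78.2%) and 53 (84.1%, 72.7 to 92.1%) at nt 139 to 237 (chr17:84185516-84185614). The 3 paralogues were thus bound mainly in 1 region each, which lay toward the end of the 3′UTR in Zfp36 and Zfp36l1 and near its start in Zfp36l2.

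Khsrp had 2 main clusters of nearly equal weight, near both ends of the 3′UTR. The cluster at nt 274 to 352 held 96 and 46 cDNAs and that at nt 1581 to 1610 held 79 and 41. In Elavl1 a cluster of 259 nt that begins 5 nt after the stop codon held 374 cDNAs in replicate 1 (58.9%, interval 55.0 to 62.8%) and 123 in replicate 2 (68.3%, 61.0 to 75.1%). Its next cluster, at nt 1158 to 1237, held 123 (19.4%) and 39 (21.7%). Zc3h12a had a cluster at nt 272 to 291 with 29 and 9 cDNAs and another at nt 602 to 616 with 25 and 3.

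Pum2 was bound along most of its length, and Rc3h1 was so in replicate 1 only. Replicate 2 had no Rc3h1 cDNA between the clusters that end at nt 2319 and begin at nt 5435. The last Rc3h1 site lay at nt 6239 of 7181. Rc3h1 had 46 clusters, of which 7 held cDNAs of both replicates, and the most used by the summed count, at nt 2160 to 2278, held 56 cDNAs (15.3%) and 14 (22.2%). A cluster at nt 6169 to 6239 followed with 51 (13.9%) and 17 (27.0%), and was the higher in replicate 2. Pum2 had 31 clusters, 16 of them with both replicates. Its clusters at nt 437 to 493, with 59 cDNAs (11.8%) and 21 (17.2%), and at nt 1486 to 1611, with 63 (12.6%) and 17 (13.9%), tied at 80 summed cDNAs. It took 5 clusters in Rc3h1 and 6 in Pum2 to reach 50% of the summed cDNAs, against 1 or 2 in the other 6 members. For comparison, 2483 genes that reached 50 summed cDNAs and had sites in their longest 3′UTR were taken. Their most used cluster held a median of 47.5% of the summed cDNAs (quartiles 31.4 and 72.0%) and the median number of clusters was 7. It took a median of 2 clusters (quartiles 1 and 2) to reach 50% in these genes. Their median 3′UTR length was 1723 nt. The low-FDR filter keeps nucleotides with crosslinks close by, so part of the clustering is built into the lists.

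**Figure D2:**
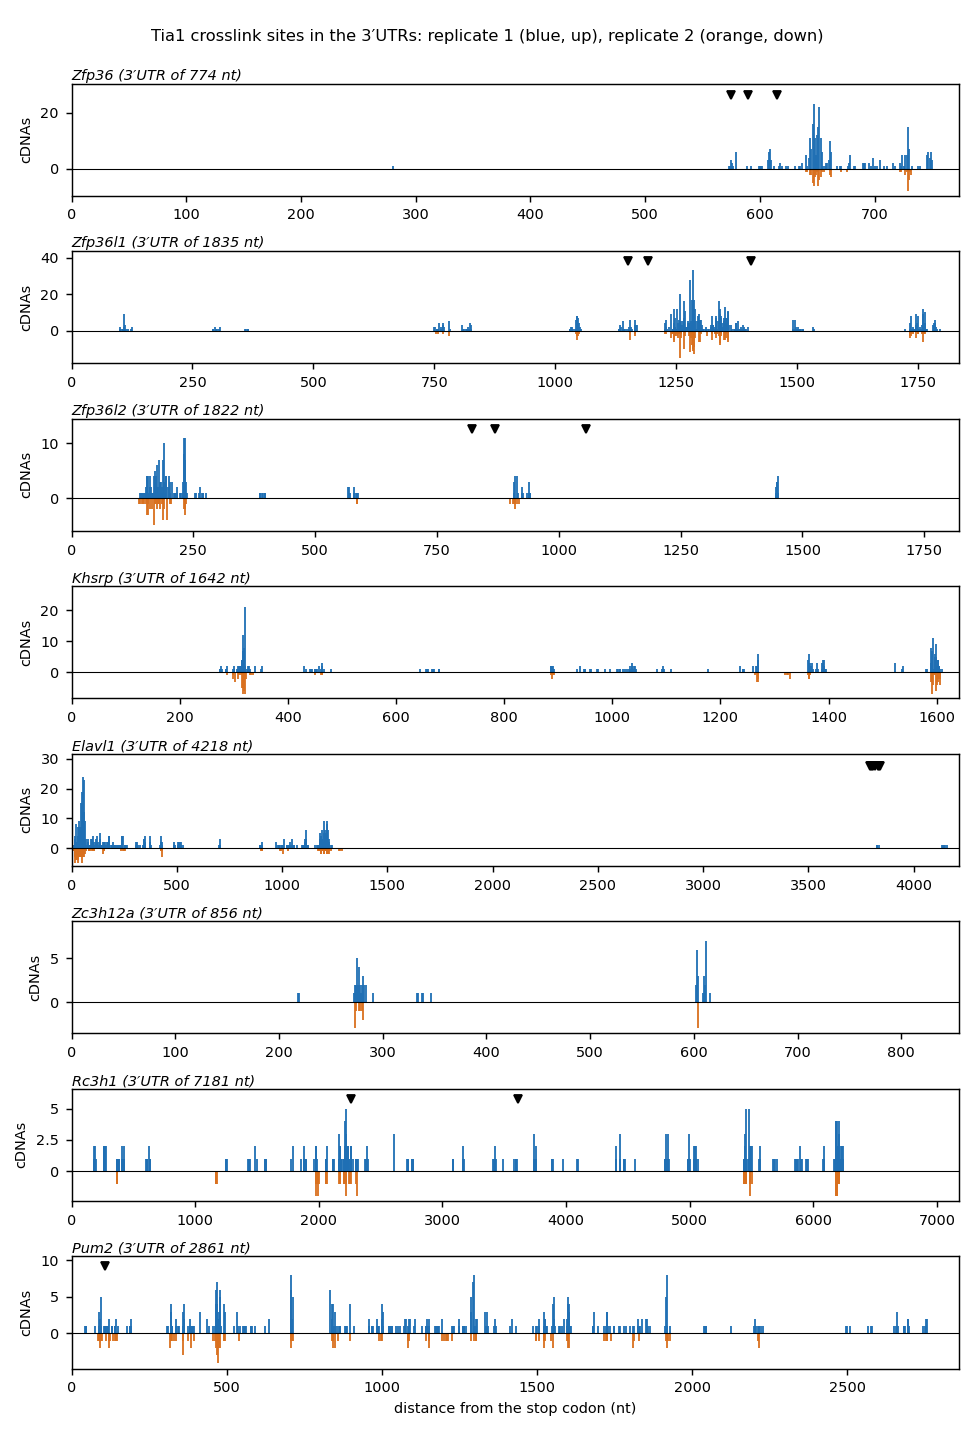
Low-FDR Tia1 crosslink sites along the 3′UTR of each transcript (x axis, distance from the stop codon in nt; y axis, unique cDNAs per nucleotide), with replicate 1 in blue above the line, replicate 2 in orange below it and triangles at each UAUUUAU heptamer. Sites are gathered at the end of Zfp36, at the start of Zfp36l2 and in the first part of Elavl1. They are spread over Pum2 and, in replicate 1, over Rc3h1. The y axes differ between panels.

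**Figure D3:**
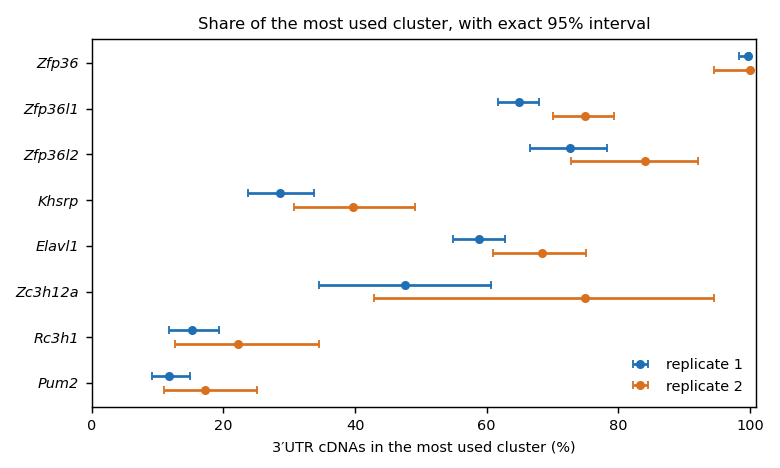
Share of 3′UTR cDNAs in the cluster of each transcript with most summed cDNAs (for Pum2, the one nearer the stop codon of 2 that tied; x axis, percent of that replicate's cDNAs) with exact 95% intervals, in blue for replicate 1 and orange for replicate 2. Shares run from 11.8 and 17.2% in Pum2 to 99.7 and 100% in Zfp36.

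Annotated 3′UTR ends divide 2 of the transcripts further. Elavl1 has a shorter form that ends at nt 1257, and this first 29.8% of the 3′UTR held 627 of 635 cDNAs in replicate 1 (98.7%) and 177 of 180 in replicate 2 (98.3%). The 2961 nt found only in the longer form held 8 and 3 cDNAs. The density was 499 and 141 cDNAs per kb before the shorter end and 2.70 and 1.01 after it. Per kb of the shorter form alone, Elavl1 would stand above Zfp36 (426 and 84.0 cDNAs per kb) in place of its lower rank by the full length. How much of each form was present in the cells was not measured. Pum2 has annotated ends at nt 600 and nt 1734, and the part beyond nt 1734 and up to nt 2841 held 82 cDNAs (16.4%) and 14 (11.5%). In the annotation that part belongs only to the longer Pum2 forms.

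The relation of the sites to uridine was then measured in windows of 31 nt. Around the crosslinked nucleotides of the members, weighted by cDNAs, the uridine share was 49.4% in replicate 1 and 54.9% in replicate 2 (52.1% ± 3.87, SD, n = 2), against 33.0% over all 21189 nt of the 3′UTRs. In each of the 8 transcripts both replicates were above the mean of its own 3′UTR. The largest values were those of Elavl1, 57.1 and 65.8% against 33.2%. The smallest were those of Zc3h12a, 35.3 and 38.2%, whose 3′UTR has only 21.3% uridine. The excess over the own 3′UTR was between 8.22 percentage points in Pum2 and 23.9 in Elavl1 in replicate 1. Over genes that reached 50 summed cDNAs the median excess in this replicate was 14.6 points (quartiles 10.96 and 18.5), so that Elavl1, Khsrp and Zfp36l2 lay above the upper quartile and Pum2 below the lower. In replicate 2 the median was 17.8 points (quartiles 13.1 and 22.56). These 4 members kept their places there, and Rc3h1 with 22.97 points lay above the upper quartile as well. The crosslinked nucleotide itself was a uridine for 82.4% of member cDNAs in replicate 1 and 88.5% in replicate 2. UV light is known to crosslink uridine with preference, and its part in these shares was not tested.

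Runs of 5 uridines, UUUUU, were nearby far more often than AUUUA pentamers. Motifs were searched on the transcript strand, and a site counted as near when it lay within 15 nt of a match. Positions near UUUUU made up 17.7% of the member 3′UTRs and held 62.8% of cDNAs in replicate 1 and 74.9% in replicate 2. Positions near AUUUA made up 9.42% and held 13.4 and 10.8%. Over the 3′UTRs of 6627 genes positions near UUUUU made up 10.9% of the length and held 50.9 and 63.3% of cDNAs, and those near AUUUA made up 6.37% and held 13.7 and 14.7%. AUUUA was found in 79.3% of these 3′UTRs and UUUUU in 88.8%, and a window of 30 nt held them in 4.84 and 8.48% of positions.

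The members differed in how AUUUA was covered. In Zfp36l2, with 5 matches, no cDNA at a low-FDR site of either replicate lay within 15 nt of one. Replicate 1 had 0 of 242, which allows a share of up to 1.24%, and replicate 2 had 0 of 63, up to 4.76%. These limits cover counting error at low-FDR sites only. Crosslinks outside the low-FDR list were not placed relative to AUUUA. In Khsrp, with a single match, 6 of 336 and 0 of 116 did. In Zc3h12a 27 of 61 cDNAs (44.3%) and 3 of 12 (25%) did, and in Zfp36l1 200 (21.6%) and 53 (15.1%). In Zfp36 all 49 such cDNAs came from replicate 1 (14.8%), and replicate 2 had 0 of 65, which allows up to 4.62%. Within 30 nt the shares in Zfp36 were 44.2 and 35.4%, so the absence in replicate 2 holds only for the shorter distance.

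The heptamer UAUUUAU, which contains AUUUA and is the core bound by the Zfp36 family, was found 20 times in 6 of the 8 transcripts. Of the 6627 3′UTRs, which were not matched to the members for length, 36.6% had it, and 0.686% of windows of 30 nt held it. Positions near UAUUUAU made up 2.33% of the member 3′UTRs and held 3.77 and 2.67% of cDNAs. Over the 6627 3′UTRs they made up 1.04% of the length and held 3.00 and 3.36%. The windows of 30 nt below show heptamers with and without crosslinks, with every UAUUUAU in capitals. In these labels only crosslinks at low-FDR sites were counted.
Zfp36, 2 heptamers (chr7:28376965-28376994, minus strand): agugggcccuuUAUUUAUgacgacuuUAUU
Zfp36, distal heptamer (chr7:28376925-28376954, minus strand): agauuuuauagUAUUUAUauauauuggguc
Zfp36l1, crosslinked heptamer (chr12:80108421-80108450, minus strand): uuaucaaaacgUAUUUAUugccaaacuaug
Zfp36l1, heptamer after the main cluster (chr12:80108166-80108195, minus strand): aacuguuggauUAUUUAUuuuagaaauucu
Zfp36l2, heptamer without crosslinks (chr17:84184913-84184942, minus strand): acuauuuaacuUAUUUAUuaucuugugaaa
Elavl1, run of overlapping heptamers (chr8:4285787-4285816, minus strand): gucaugaaaauUAUUUAUUUAUUUAUUUAU
The first Zfp36 window ends inside its second heptamer. In Zfp36 the 3 heptamers, at nt 575, 590 and 615, had 16, 37 and 32 cDNAs of replicate 1 within 15 nt and 0 of replicate 2; these neighbourhoods overlap. The main U-rich sites of Zfp36 lie downstream of them.

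Zfp36l1 had 39 cDNAs of replicate 1 and 14 of replicate 2 around the heptamer at nt 1150, none around that at nt 1191, and 6 and 0 around that at nt 1405, which follows its main cluster. The 3 heptamers of Zfp36l2, at nt 822, 870 and 1056, had none in either list. Elavl1 has 8 heptamers between nt 3795 and 3847, most of them overlapping, in the part found only in the longer form. At most 3 cDNAs of replicate 1 and 0 of replicate 2 lay within 15 nt of any of them. Pum2 had 19 and 9 cDNAs around its heptamer at nt 107. Rc3h1 had 10 and 3 around that at nt 2257, and 2 and 0 around that at nt 3611.

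The Pumilio element UGUANAUA, which Pum2 itself binds, was found 4 times, in Pum2 and Rc3h1 alone, and in 32.7% of the 6627 3′UTRs. The element at nt 698 of Pum2 lies next to the nucleotide with most cDNAs in this transcript (8 in replicate 1 and 2 in replicate 2, at nt 708). It is shown in capitals.
Pum2, Pumilio element (chr12:8750407-8750436, plus strand): auguacagaauUGUAUAUAcuuauaauugu
Within 15 nt of it lay 25 cDNAs of replicate 1 and 5 of replicate 2, and within 15 nt of the element at nt 445 lay 16 and 4. In Rc3h1 the element at nt 2040 had 3 and 2 and that at nt 7101 had 0 and 0. Positions near UGUANAUA made up 0.717% of the member 3′UTRs and held 1.30 and 1.13% of cDNAs. Over the 6627 3′UTRs such positions made up 0.967% and held 2.30 and 2.58%. The letters UUCNNNGAA, which hold the loop of constitutive decay elements among many other sequences, were found 10 times in 4 members. Near them lay 0.825% of member cDNAs in replicate 1 and 0 in replicate 2, where 1.84% of the 3′UTR length was near. Over the 6627 3′UTRs the shares were 1.32 and 1.22% of cDNAs, where 1.34% of the length was near.

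Outside the 3′UTR the replicates differed most in coding sequence. Replicate 1 had 206 member cDNAs in coding sequence (5.58%, interval 4.86 to 6.37%), in 7 of the 8 members. Replicate 2 had 2 (0.201%, 0.0244 to 0.726%), both in Khsrp. Over all cDNAs within genes the shares were 6.79 and 3.44%. The median per gene, taken as for the 3′UTR share, was 2.30% in replicate 1 (quartiles 0 and 7.08%). In replicate 2 the median and both quartiles were 0%. By share, Khsrp (13.2%), Zc3h12a (12.9%) and Pum2 (8.87%) were above the upper quartile in replicate 1, and the other members were not. In replicate 1 Pum2 had 54 coding cDNAs, Khsrp 51 and Elavl1 45, whereas Zfp36l2 had 0 of 246, which allows up to 1.22%. Those of Pum2 were scattered over 12 places with at most 7 cDNAs each, joining sites at most 100 nt apart. In Elavl1 the stretches nearest the stop codon (chr8:4289622-4289641 and chr8:4289753-4289916) held 12 and 20 of its 45 cDNAs.

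Introns held 54 cDNAs of replicate 1 and 12 of replicate 2 in Pum2, and 4 and 0 in Rc3h1. In Pum2 both replicates had sites at chr12:8713947-8714056 (16 and 8 cDNAs) and at chr12:8714351-8714365 (4 and 4), inside an annotated intron and outside every annotated Pum2 exon. The 5′UTR of Rc3h1 (chr1:160930028-160930109) held 23 and 5 cDNAs, that of Elavl1 (chr8:4311777-4311783) held 8 and 2, and that of Zfp36l2 held 4 and 0. Rc3h1 and Elavl1 were the 2 members with 5′UTR sites in both libraries.

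The wider network of mRNA decay was described with a list of 29 further genes, of which 24 had a 3′UTR site in both replicates. These were all 24 genes of the list that had an exon site. Among the 7787 genes with an exon site 59.3% did. Of 14 relatives and co-binders 9 had such sites, among them Hnrnpd (AUF1, an AU-rich element binder) with 408 and 132 cDNAs and Fubp1 with 294 and 94. The neuronal paralogues Elavl2, Elavl3 and Elavl4 and the genes Zfp36l3 and Zc3h12b had none. Rc3h2, the paralogue of Rc3h1, had 164 and 9. All 9 deadenylation, decapping and degradation factors had sites in both replicates, led by the deadenylase Cnot6l with 638 and 105, the exonuclease Xrn1 with 315 and 57, and Cnot6 with 259 and 58. All 6 kinases, proteases and 14-3-3 proteins that act on the members had sites too, led by Ywhae with 638 and 260, Ywhaz with 609 and 181, and Ywhab with 97 and 9. Among the 24 genes the median of the summed 3′UTR cDNAs was 139.5, and 20 over all genes counted. Tia1 and its paralogue Tial1, counted among the relatives, had 71 and 12, and 48 and 22 cDNAs.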

How the data were processed

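The authors demultiplexed the iCLIP reads, collapsed PCR duplicates by random barcode, mapped them to mm9 with Bowtie (version and handling of multiple matches not given in the sources used here) and called low-FDR sites with the iCount pipeline against permuted positions. The deposited values are signed cDNA counts per nucleotide, not scaled, of which the sign gives the strand. The pooled list is also deposited lifted to mm10 (GRCm38), row by row. Each replicate site took the mm10 position of its pooled mm9 row, which covered 98.9% of cDNAs in replicate 1 and 99.1% in replicate 2. In the members 49 cDNAs of replicate 1 and 0 of replicate 2 had no such row.

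Sites were assigned to GENCODE M21 features on the same strand in the order coding sequence, 3′UTR, 5′UTR, other exon, intron. The longest 3′UTR of each member matched a GENCODE transcript in all 8 cases, and no member site lay in the 3′UTR of a second gene. The members, the decay list and the rules were chosen with earlier results of these data known. All 8 members are described, with their most used cluster and highest site; of the decay list the 3 highest of each group and those at 0 are named, except 1 gene that is not reported here, and Rc3h2, Tia1 and Tial1 were added after their values were seen. Feature assignment, clustering and motif search were tested on simulated data. Alternatives are given in the closing section. The scripts ran under Python 3.11.15 with pysam 0.24.0 for sequence, scipy 1.17.1 for intervals, pandas 2.3.3 and numpy 2.4.6 for tables and matplotlib 3.10.9 for plots. The sources differ on UV dose, RNase concentration and antibody.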

Additional observations from a re-analysis of the deposited data

Results flagged for a closer look

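The map of all crosslinked positions, which has no FDR filter and sums both replicates, was used in no comparison above. Between the first and the last pooled low-FDR site of each 3′UTR it held further cDNAs at nucleotides outside the low-FDR list, more than the 3 that a count of 0 allows. There were 210 in Zfp36l1, 113 in Rc3h1, 58 in Khsrp, 46 in Zfp36, 45 in Zfp36l2, 43 in Pum2, 42 in Elavl1 and 7 in Zc3h12a. The low-FDR sites held from 80.5% of all cDNAs in that stretch of Rc3h1 to 95.2% in that of Elavl1. These stretches had the same length in mm9 and GRCm38 in all 8 members. With groups of 2 libraries no library was tested for standing apart.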

How the results depend on the processing

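Either replicate alone had a 3′UTR site in all 8 members, which follows from the count in both. The count of members with a 3′UTR site in both replicates was 8 with at least 10 cDNAs in each replicate. It was also 8 with basic transcripts and with 3′UTR before coding sequence, and 5 with sites of at least 5 cDNAs. The last setting keeps fewer sites: it gave a 3′UTR share of 99.8% and 1668 summed 3′UTR cDNAs in place of 4367. Either replicate alone gave 972 to 3395 cDNAs, since a sum over 1 library is smaller. The share from replicate 2 was 22.3% over the list, 32.6% at sites called in both replicates and 15.3% at sites of at least 5 cDNAs, so this share depends on the sites taken. The uridine share was 59.9% in a window of 11 nt. The share near AUUUA, 12.1% as the mean of the replicates, was 6.52% within 5 nt, 23.8% within 30 nt, 3.22% for UAUUUAU and 14.7% with each site counted once. The median share of the most used cluster was 62.4%, and 53.2 to 66.6% from either replicate alone. In Zfp36 this share was 69.2% with replicate 2 alone, which lacks sites that join its clusters. No paired analysis was possible because there is 1 group. The depth of replicate 2, with 12 to 351 3′UTR cDNAs per member, limits comparisons within single clusters.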
